A study of Homo sapiens with 6 samples.

Results

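The genes described are the core and linker histone genes that the array could read. They were found by their symbols, which had to start as those of the H1, H2A, H2B, H3 or H4 genes do, among probesets annotated to exactly 1 gene. Where a gene had several probesets, the brightest on average represented it. Of 18132 genes measured, 75 had such a symbol. Of these, 3 were not histone genes, namely the antisense RNA H1-10-AS1 and the transcribed pseudogenes H1-9P and H2BC20P, and they were left out. The remaining 72 were 9 linker H1, 19 H2A, 18 H2B, 14 H3 and 12 H4 genes. No level was used to choose them.

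Tumors were grown under the skin of NOD/SCID mice, which lack functional T and B lymphocytes. The cells were MDA-MB-231, a human breast cancer line of the triple-negative type that has long been in culture. The mice were 4 to 6 weeks old. One group of mice received epinephrine (Epi), the adrenal stress hormone, at 2 mg/kg/d under the skin, starting 7 days ahead of the tumor cells. The other received the same volume of PBS. Cells taken from the tumors gave RNA for 3 Epi and 3 PBS arrays (Affymetrix Human PrimeView), labelled as biological replicates 1 to 3 of each group. Both flanks of a mouse carried cells, and no source used here says if the 3 tumors of each group are from 3 mice. The p-values therefore measure the spread between these samples. A code in the sample descriptions carries the number 20 for Epi replicate 2, 10 for the other Epi replicates and 0 for PBS, and its meaning is not given. The comparison asks which genes differ between tumors of mice given the hormone and tumors of mice given PBS.

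In a nucleosome, DNA is wound around pairs of the core histones H2A, H2B, H3 and H4, and a linker histone H1 sits where the DNA enters and leaves. Most core and linker genes lie in clusters and are transcribed in S phase, and their messages end in a stem-loop in place of a poly(A) tail. Replacement variants such as H2A.Z and H3.3 come from single genes outside the clusters and are made throughout the cell cycle as polyadenylated messages. H2AX was counted with the replacement genes here. Some clustered genes are also known to give polyadenylated transcripts. How the labelling was primed is not given in the labels or the methods.

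Both replicate 1 arrays stood apart from the rest. Their median log2 values over all probesets were 6.05 for Epi and 5.98 for PBS, against 6.37 to 6.42 on the other arrays. Over all genes they correlated at 0.982 with each other and at 0.935 to 0.962 with the other arrays, which correlated at 0.972 to 0.989 among themselves. Over the 72 histone genes these values were 0.994, 0.940 to 0.965 and 0.988 to 0.997. Dim here means a mean log2 value under 5.69, the 30th percentile of all genes. The 9 genes known to be high in this cell line, such as VIM and CD44, were all above it. Of 6 genes known to be low in the line, only 3 were dim. The others, ESR1, ERBB2 and GATA3, had means of 7.09, 8.48 and 7.50, so this level does not tell the genes of the line from others. Of the fibroblast markers 6 of 7 were dim, of the macrophage and leukocyte markers 4 of 7 and of the endothelial markers 2 of 6. The mean log2 level of the fibroblast markers was 4.18 to 4.63 in Epi tumors and 4.35 to 4.48 in PBS tumors. That of the leukocyte markers was 5.04 to 5.13 in Epi tumors and 4.96 to 5.39 in PBS tumors, and that of the endothelial markers 5.98 to 6.27 in Epi tumors and 5.66 to 6.41 in PBS tumors. The ranges of both groups overlapped for each of these lists, and no marker passed the test. Host fibroblasts, leukocytes and vessels in these tumors would be mouse cells, and the array was made for human transcripts. These levels are therefore no measure of how many host cells a tumor held.

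Most histone genes differed little between Epi and PBS tumors, though 44 of the 72 were dim. None passed the test without a replicate block. H2AC6 and H2BC12 passed with it. These genes of the chromosome 6 clusters encode an H2A and an H2B, and they had mean differences of 1.20 and 1.17 on the log2 scale, or 2.30-fold and 2.25-fold. H1-2, H2BC4 and H2BC5 had differences of 0.64, 0.54 and 0.42 and passed in neither fit. In limma's fit across all genes, with Benjamini-Hochberg adjustment and a threshold of 0.05, 0 of the 72 genes passed, against 0% of all genes. With the replicate number as a block, 2 histone genes passed, both higher in Epi tumors, against 0.353% of all genes in that direction. None passed as lower, against 0.32% of all genes. At an unadjusted p under 0.05, limma without the block gave 2 histone genes higher, against 0.529% of all genes, and 0 lower, against 0.8% of all genes. The methods' t-test gave 3 histone genes at that level in either direction, against 1.39% of all genes, and 0 after adjustment.

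**Figure D1:**
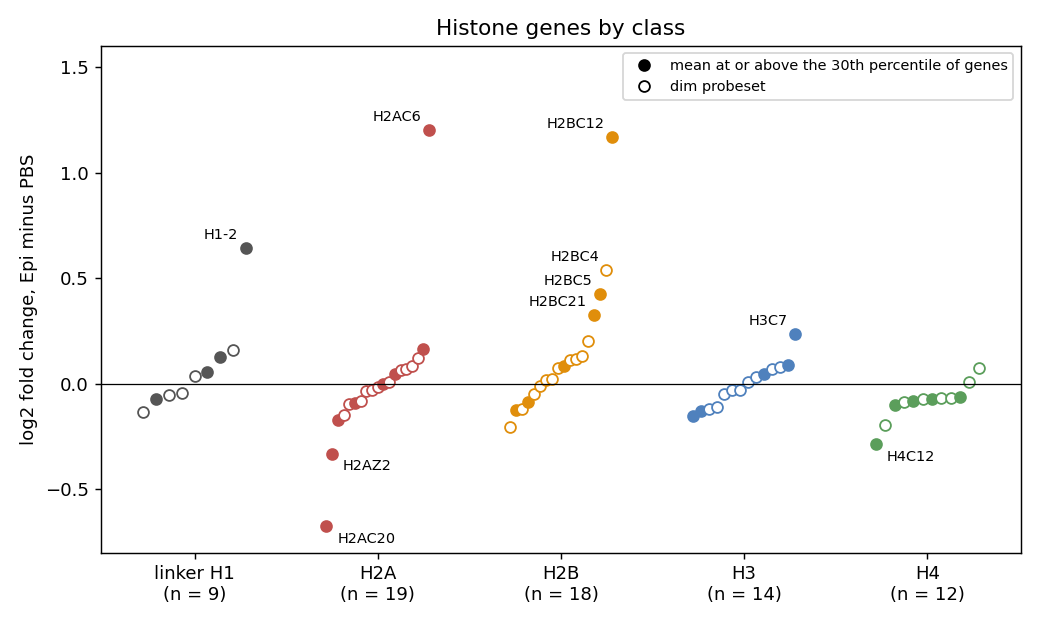
The difference between Epi and PBS means on the log2 scale (y axis) for each of the 72 histone genes, by class (x axis), ordered within a class. Filled circles are genes at or above the 30th percentile of mean level and open circles are dim probesets, and 60 of the 72 genes lie within 0.2 of 0.

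The median log2 fold change was -0.012 over the 72 histone genes and -0.016 over all genes. Differences were under 0.2 in size for 60 of the 72 (83.3%), against 73.5% of all genes. These sets are unlike in level, since 44 of the 72 were dim, against 5440 of the 18132 genes. The 2 shares therefore do not show that histone genes were steadier. Of the histone genes with larger differences, only H2BC4, H2BC7 and H2BC8 were dim. Of the 72, 34 were above 0 and 38 below. The 28 genes that were not dim ranged from -0.68 (H2AC20) to 1.20 (H2AC6). The other 44 were dim. By class the medians were 0.034 for linker H1, -0.014 for H2A, 0.080 for H2B, -0.012 for H3 and -0.071 for H4. Among the H4 genes, 10 of 12 were below 0, and among the H2B genes 12 of 18 were above 0. Over all 18132 genes, 9846 were below 0 and 8286 above. Dim genes made up 7 of the 12 H4 and 12 of the 18 H2B genes. The 8 replacement genes had a median of -0.052 and the 64 other genes -0.0021. These 64 are mostly genes of the clusters. They also hold the germ-line linker genes H1-7 and H1-8 and the chromosome 12 gene H4C16, which lie outside the clusters. These medians describe the lists and were not tested.

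The lowest Epi value exceeded the highest PBS value for 4 of the 72 genes (5.56%), against 0.982% of all genes. These were H2AC6, H2BC12, H2BC5 and H2BC8, and H2BC8 was dim, with a difference of 0.20. It was named after its values were seen. The opposite held for 1 gene, H2AZ2 (1.39%), against 2.22% of all genes. Histone probesets can read near-identical sequences of several genes. Of the 72 probesets used, 18 carried the array maker's suffix for a set shared by several transcripts and 10 the suffix for a set with probes that may cross-hybridize. For these, signal from a related gene could not be told apart.

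H2AC6 had log2 values of 7.28, 7.65 and 7.34 in Epi replicates 1 to 3, and 6.69, 6.14 and 5.83 in PBS replicates 1 to 3. The groups did not overlap, and all 3 Epi values lay closer together than the PBS values. The difference was 1.20 ± 0.28 (SE, 95% interval 0.55 to 1.85). Limma gave an adjusted p of 1.00 without the block and 0.0183 with it. A single probeset read H2AC6, of the kind shared by several transcripts.

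H2BC12 had log2 values of 10.90, 11.63 and 11.69 in Epi replicates 1 to 3, and 10.14, 10.53 and 10.05 in PBS replicates 1 to 3. The lowest Epi value, in replicate 1, was still above the highest PBS value. The difference was 1.17 ± 0.29 (SE, 95% interval 0.50 to 1.84), with limma's adjusted p at 1.00 without the block and 0.0170 with it. A second probeset of H2BC12 was dim and differed by -0.15. Averaging both probesets gave 0.51, and with the block the adjusted p was then 0.453. With a factor for the replicate 1 arrays in place of the block, the adjusted p of H2AC6 and H2BC12 was 0.0731 and 0.0558, and with both replicate 1 arrays left out and no block it was 0.0790 and 0.116. The block calls of both genes were also lost with median centring (adjusted p = 0.100 and 0.0921), without the replicate 3 arrays (0.0764 and 0.205) and when all probesets were tested (0.153 and 0.142). H2AC6 alone also lost it without the replicate 2 arrays (0.184) and with quantile normalization (0.0688).

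H2BC5, another clustered H2B gene, was read by 3 probesets. The brightest gave 8.27, 8.60 and 8.32 in Epi replicates 1 to 3 and 8.08, 7.97 and 7.88 in PBS replicates 1 to 3, a difference of 0.42 ± 0.23 (SE). The second gave 7.90, 8.49 and 8.32 in Epi tumors and 7.33, 6.70 and 6.40 in PBS tumors, a difference of 1.43. Neither overlapped between groups. The third differed by 0.44 with overlap. With the block and all probesets tested, the adjusted p of the second was 0.149.

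H1-2 is a linker histone of the same cluster. Its log2 values were 9.87, 9.37 and 9.17 in Epi replicates 1 to 3 and 9.55, 8.83 and 8.10 in PBS replicates 1 to 3. The lowest Epi values lay below the highest PBS value, although each Epi array was above the PBS array of its number. The difference was 0.64 ± 0.39 (SE, 95% interval -0.24 to 1.52), with adjusted p = 1.00 in limma without the block and 0.383 with it. Leaving out 1 array at a time moved the difference to between 0.28 and 1.00.

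**Figure D2:**
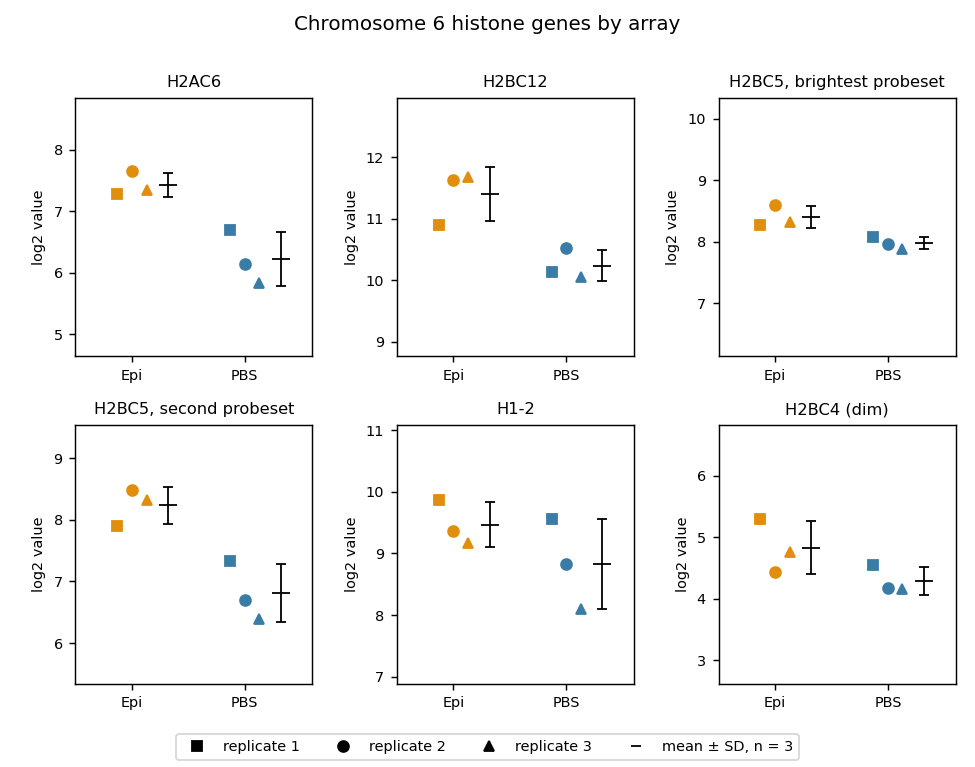
Log2 values (y axis, each panel spanning the same range) in the 3 Epi and 3 PBS arrays for H2AC6, H2BC12, 2 probesets of H2BC5, H1-2 and H2BC4, with square, circle and triangle for replicates 1, 2 and 3 and bars for mean ± SD. Epi and PBS points do not overlap for H2AC6, H2BC12 and either probeset of H2BC5, and they overlap for H1-2 and H2BC4.

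The sequences before these genes are shown because clustered H2A and H2B genes are often read outward from a common stretch. Each is from RefSeq, assembly GRCh38.p14, and runs up to the base before the start site. Capitals mark the letters of the octamer (ATTTGCAT, bound by OCT1), the CCAAT box (CCAAT), the TATA box (TATAAA) and the cAMP response element (TGACGTCA, the site of CREB) on either strand. The stretch between the start sites of H2BC4 and H2AC6 is chr6:26123927-26124171 on the plus strand, that of H2BC12 is chr6:27146859-27147058 on the minus strand and that of H2BC5 is chr6:26157921-26158120 on the plus strand. That of H1-2 is chr6:26056471-26056670 on the minus strand, and that between H2BC21 and H2AC20 is chr1:149886683-149886917 on the plus strand.
H2AC6: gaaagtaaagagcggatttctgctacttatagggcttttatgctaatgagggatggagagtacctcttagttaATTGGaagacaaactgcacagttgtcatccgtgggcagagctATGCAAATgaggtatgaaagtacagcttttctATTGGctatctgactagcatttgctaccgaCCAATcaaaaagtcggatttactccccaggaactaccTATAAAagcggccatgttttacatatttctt
H2BC12: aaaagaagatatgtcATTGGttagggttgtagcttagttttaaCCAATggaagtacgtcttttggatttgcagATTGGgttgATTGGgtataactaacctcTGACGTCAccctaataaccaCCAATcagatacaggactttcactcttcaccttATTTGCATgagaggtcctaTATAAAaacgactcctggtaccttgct
H2BC5: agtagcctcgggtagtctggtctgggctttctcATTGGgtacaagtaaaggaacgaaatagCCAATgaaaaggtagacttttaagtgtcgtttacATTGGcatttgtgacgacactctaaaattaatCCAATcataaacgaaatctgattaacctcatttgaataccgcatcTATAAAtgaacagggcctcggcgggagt
H1-2: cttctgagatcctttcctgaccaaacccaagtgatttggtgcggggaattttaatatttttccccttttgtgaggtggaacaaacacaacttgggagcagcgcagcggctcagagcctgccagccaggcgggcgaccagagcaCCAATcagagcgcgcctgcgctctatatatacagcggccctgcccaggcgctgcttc
H2AC20: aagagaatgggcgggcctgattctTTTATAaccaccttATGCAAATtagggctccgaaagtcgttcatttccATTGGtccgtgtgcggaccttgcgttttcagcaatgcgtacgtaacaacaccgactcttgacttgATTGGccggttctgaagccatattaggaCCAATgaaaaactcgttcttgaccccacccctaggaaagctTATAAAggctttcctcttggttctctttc

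Motifs were also counted on both strands in windows of 250 bases before to 50 after each start site, for the 66 histone genes with a promoter in the table and for all 27305 promoters. The octamer was present in 14 of 18 H2B windows (77.8%) and 11 of 18 H2A windows (61.1%), in 0 of 9 linker H1 and 0 of 10 H4 windows, and in 1.8% of all promoters. CCAAT was found in 58 of the 66 (87.9%) and in 35.7% of all promoters, but in 3 of 10 H4 windows (30%). TATAAA was found in 41 of the 66 (62.1%) and in 12% of all promoters. TGACGTCA, which reads the same on both strands, was found in 7 of the 66 (10.6%) and in 1.98% of all promoters, and H2BC12 was among the 7. The E-box CACGTG, a site of MYC, was found in 0 of the 66 and in 7.43% of all promoters. The octamer was in the printed stretches of H2AC6, H2BC12 and H2AC20, and these letters were not in those of H2BC5 and H1-2. H2A and H2B genes read outward from start sites under 250 bases apart have overlapping windows, so the same site can count for both. The shares above are therefore not of separate promoters. Many histone genes whose levels differed little carry the same motifs, and a match is no measure of binding.

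Pairs could be sought only among the 66 histone genes with a promoter in the table. H2AC12 had none there, so a pair of H2AC12 and H2BC12 could not be found. H2AC12 was dim and differed by -0.014. In 11 pairs, an H2A and an H2B gene were read outward from start sites 194 to 248 bases apart. Both members had the same sign of difference in 9 of the 11 pairs, but both were above the dim level in only 3 pairs. Of these 3, the pair of H2AC20 and H2BC21 had opposite signs. In the others the differences lay between -0.09 and 0.08. The count of shared signs was not tested. H2BC4, the partner of H2AC6, is dim and was named after its values were seen. It had log2 values of 5.30, 4.44 and 4.77 in Epi replicates 1 to 3 and 4.55, 4.18 and 4.15 in PBS replicates 1 to 3, which overlap. Its difference was 0.54 ± 0.29 (SE), and its other probeset, also dim, differed by -0.11. H2AC20 and H2BC21, on chromosome 1, differed by -0.68 and 0.32.

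**Figure D3:**
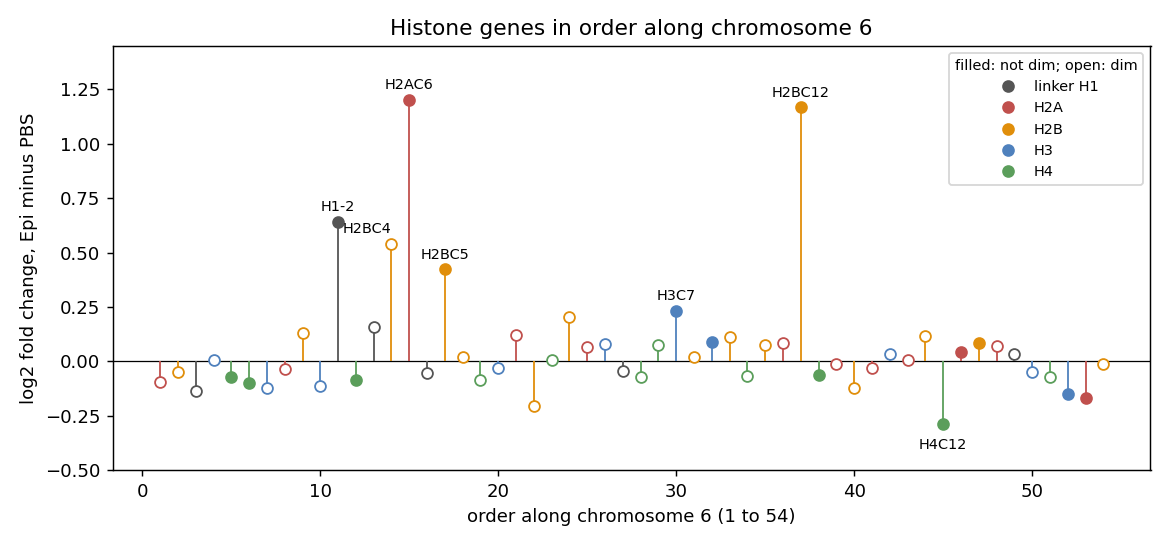
The difference between Epi and PBS means on the log2 scale (y axis) for the 54 histone genes of chromosome 6 in their order along it (x axis, rank and not distance), coloured by class, with open circles for dim probesets. H1-2, H2BC4, H2AC6 and H2BC5 stand at places 11, 14, 15 and 17 and H2BC12 at place 37. H2BC4 and H2AC6 are next to each other, and the other direct neighbours of these genes lie between -0.11 and 0.16.

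Chromosome 6 held 54 of the 72 genes, of which 15 were not dim, with a median difference of 0.0065. H1-2, H2BC4, H2AC6 and H2BC5 lay within places 11 to 17 of this order. H2BC12 was at place 37. H4C3 stood between H1-2 and H2BC4, at place 12, and differed by -0.08, so the higher genes were not an unbroken run. The 8 genes on chromosome 1 had a median of -0.09.

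For H2AC20 and H2BC21, a divergent pair on chromosome 1, the replicate 1 arrays were low in both groups. H2AC20 had log2 values of 5.27, 8.06 and 7.94 in Epi replicates 1 to 3 and 5.72, 8.92 and 8.65 in PBS replicates 1 to 3. The difference of -0.68 ± 0.97 (SE) was smaller than that spread. It was 0.23 without Epi replicate 1 and -1.70 without PBS replicate 1, and these values move with the offset of the replicate 1 arrays. Within replicate numbers 1 to 3 the Epi array was lower in every pair, at -0.45, -0.86 and -0.72, and with the block the 95% interval was -1.11 to -0.25 and limma's adjusted p 0.260. H2BC21 had 5.17, 6.32 and 6.19 in Epi tumors and 4.90, 5.92 and 5.90 in PBS tumors, which overlap, and its difference was 0.32, or -0.013 without PBS replicate 1. Within replicate numbers 1 to 3 the Epi array was higher in every pair, at 0.27, 0.40 and 0.30.

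Among the other clustered H2A and H2B genes above the dim level, differences were between -0.17 (H2AC17) and 0.08 (H2BC15). H2AC15 differed by 0.05, H2BC18 by -0.13 and H2BC26 by -0.09. None of these separated the groups.

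Of the H3 genes, H3C7 had the highest difference, 0.23 ± 0.45 (SE), from 7.73, 6.10 and 6.12 in Epi replicates 1 to 3 and 6.80, 6.34 and 6.10 in PBS replicates 1 to 3. The replicate 1 arrays were high in both groups, and without Epi replicate 1 the difference was -0.31. H3C8, H3-4 and H3C12 differed by 0.09, 0.05 and -0.15. H4C12 had the lowest difference of the H4 genes, -0.29 ± 0.33 (SE), or between -0.61 and -0.060 with 1 array left out. Its values were 8.16, 8.58 and 8.61 in Epi tumors and 8.08, 9.19 and 8.93 in PBS tumors. H4C3 was near-constant, with values between 13.51 and 13.67 in Epi tumors and between 13.50 and 13.77 in PBS tumors. H4C1, H4C2 and H4C9 differed by -0.07, -0.10 and -0.06. Of the linker genes above the dim level, H1-7 and H1-8, genes of the male and female germ line, differed by 0.06 and 0.13.

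The replacement genes above the dim level differed little. H2AZ1, which encodes H2A.Z.1, had 13.34, 13.60 and 13.52 in Epi replicates 1 to 3 and 13.39, 13.42 and 13.66 in PBS replicates 1 to 3, a difference of -0.0023 (95% interval -0.52 to 0.51). H2AX, the variant phosphorylated at DNA breaks, had 12.51, 12.50 and 12.22 in Epi tumors and 12.22, 12.17 and 12.35 in PBS tumors, a difference of 0.16 (95% interval -0.35 to 0.68). H3-3B, one of the genes for H3.3, differed by -0.13 (95% interval -0.64 to 0.38). The groups overlapped for all of these, and each interval included 0.

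H2AZ2, which encodes H2A.Z.2, had 11.19, 11.69 and 11.61 in Epi replicates 1 to 3 and 11.89, 11.89 and 11.72 in PBS replicates 1 to 3. The groups were separate, by a narrow margin, at a difference of -0.33 ± 0.24 (SE, adjusted p = 1.00 in limma with and without the block). Its other 4 probesets overlapped between groups and differed by -0.18, -0.08, 0.44 and -0.13. H1-10, a linker variant, differed by -0.07 ± 0.44 (SE). H2AJ, H3-3A and H3-5 were dim, with mean log2 values of 5.39, 2.95 and 3.16, and differed by -0.08, 0.07 and -0.03. H3-3A and H3-5 were each read by 1 probeset, and values this low do not show whether these genes changed.

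**Figure D4:**
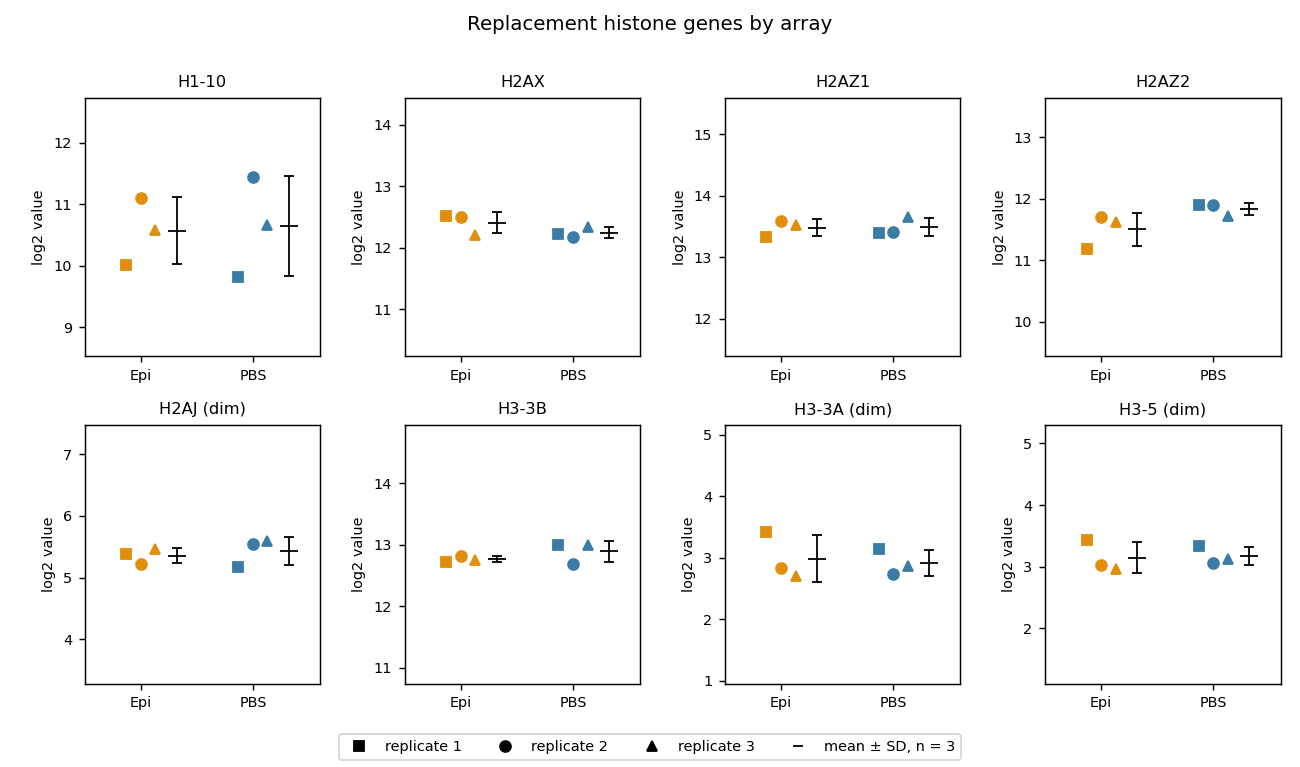
Log2 values (y axis, each panel spanning the same range) of the 8 replacement histone genes in the 3 Epi and 3 PBS arrays, with square, circle and triangle for replicates 1, 2 and 3 and bars for mean ± SD. The groups overlap for each gene except H2AZ2, where all Epi values lie just below the PBS values.

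Probesets of the same gene did not always give the same difference. The 72 genes were read by 129 probesets, of which 48 were not dim, and 36 genes had several. Among these 36 the median span between the highest and lowest difference was 0.17, and the span was over 1 for 2 genes, at 1.31 for H2BC12 and 1.00 for H2BC5. With each probeset tested on its own, 0 of the 129 passed in limma, with or without the block.

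**Figure D5:**
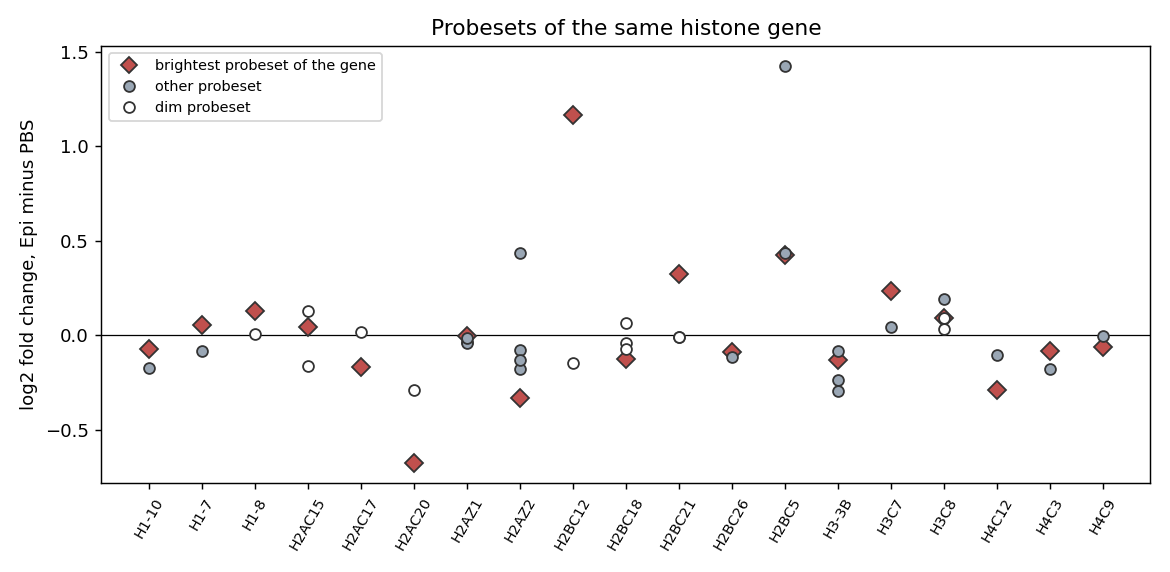
The difference between Epi and PBS means on the log2 scale (y axis) for each probeset of the 19 histone genes (x axis) with several probesets and at least 1 above the dim level. Diamonds are the brightest probeset of a gene, grey circles its other probesets and open circles dim ones, and H2BC5, H2BC12 and H2AZ2 show the wide spans.

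Genes that act on histone messages and proteins were examined as lists. Of 24 genes for histone gene transcription and 3′ end processing, 23 were measured, with a median of -0.06 and 0 passing in either fit. LSM11 is a subunit of the U7 particle that trims histone messages. It had 5.84, 6.36 and 6.43 in Epi replicates 1 to 3 and 6.50, 8.12 and 6.97 in PBS replicates 1 to 3. The groups did not overlap, and its difference was -0.99 (adjusted p = 0.0954 with the block). NPAT, the activator of clustered histone genes, differed by 0.27 with overlap. The 25 histone chaperones had a median of -0.02, led by ANP32E, which removes H2A.Z, at 0.37. The 29 measured S phase genes had a median of -0.02 and the 15 mitotic genes 0.05, where TOP2A differed by 0.71 (adjusted p = 0.507 with the block). None of these lists had a gene that passed, without or with the block. Without both replicate 1 arrays the medians were 0.11 for transcription and 3′ end processing, -0.073 for the chaperones, 0.065 for S phase and 0.22 for mitosis, and those of transcription and S phase changed sign. Among other histone variants, 5 of 14 were measured, and CENPA, the centromeric H3, differed by -0.22.

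H2AC6 had the lowest unadjusted p of the histone genes (0.00257), and the genes outside the histone families whose values followed it most closely over the 6 arrays were CYP1B1, THSD4, PCP4, ADM and TFAP2C. Pearson's r was 0.966, 0.963, 0.961, 0.957 and 0.952 in that order. ADM, the peptide adrenomedullin, had 9.82, 10.48 and 10.09 in Epi replicates 1 to 3 and 8.28, 7.54 and 7.86 in PBS replicates 1 to 3, and limma's adjusted p was 0.190 without the block and 0.000219 with it. These correlations share the same arrays and the same group difference, and they are a description.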

How the data were processed

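The log2 values were deposited by probeset. RMA and Affymetrix Expression Console appear in the submitters' processing notes, with no version. Scanner files were not used here, so background correction and normalization could not be varied, and which arrays were normalized together is not stated. Of 49395 probesets, 102 controls were left out, 44988 had 1 gene in GEO's platform annotation, 1832 had several (13 with a histone symbol) and 2473 were not listed. Symbols were looked up in RefSeq (GRCh38.p14), which changed 0. Promoters came from RefSeq.

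Groups were compared by limma 3.58.1 (lmFit, eBayes) under R 4.3.3, with Benjamini-Hochberg adjustment over 18132 genes at 0.05. Motifs were counted in Python 3.11.15. The methods name a Student's t-test for the study and no array test, so that test was an alternative. Replicate numbers come from the labels. Deviations from the group means correlated between same-numbered arrays (r = 0.630, 0.627 and 0.453), which was taken as pairing. Deviations cancel within a group and the replicate 1 arrays stand apart, so this does not settle it, and no source says what a number marks. Blocked values are given where they change a call.

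The members and lists were chosen with earlier results of these data known. Named genes were those that passed with or without the block, the 3 highest and 3 lowest above the dim level in each class, every replacement gene, up to 4 genes of a list and the 5 genes most like the member of lowest p. Both fits were tested on simulated data of 18132 genes for this comparison. With the block, 90 of 100 genes shifted by 1 on the log2 scale and 100 of 100 shifted by 2 were recovered, beside 11 false calls. The fit with no block found 0 and 27, beside 0 false calls. The simulated data held a true replicate effect. Precision is limited by the number of arrays, which carry no depth.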

Additional observations from a re-analysis of the deposited data

How the results depend on the processing

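The results were recomputed under 12 alternatives and with each of 6 arrays left out, and 8 more settings, each with the replicate block, were chosen after seeing the data. Without the block 0 genes passed with the methods' t-test, a variance trend, quantile normalization, median centring, the filter on dim genes, either treatment of probesets and each array left out (0 to 0 for all genes and 0 to 0 for histone genes). The replicate block gave 122 genes and 2 histone genes. With the block, 162 passed without the replicate 1 arrays, 66 without the replicate 2 arrays, 129 without the replicate 3 arrays, 56 with quantile normalization, 55 with median centring, 155 with the filter, 255 with a variance trend and robust estimation, 81 with the mean of probesets and 30 with all probesets. Histone calls among these were 2 without replicate 1, with the filter or with the trend, and 1 without replicate 2, with quantile normalization or with the mean of probesets. A factor for the replicate 1 arrays gave 40 genes, and leaving both out without the block gave 16, with 0 histone genes in either. Array weights gave 2352 genes and 10 histone genes (6 higher, 4 lower), with a weight of 67.3 for PBS replicate 3 alone, and the fit warned of zero variances. H2AC6 and H2BC12 kept their direction under every alternative run, at 1.01 to 1.76 and 0.51 to 1.57.

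The H2A median was -0.15 without both replicate 1 arrays, with or without the block, and the replacement median ranged from -0.10 to -0.029 with an array left out. The median span between probesets was 0.247 with array weights, 0.227 without both replicate 1 arrays and 0.169 to 0.240 with an array left out. Of the 30 named genes, 12 kept their direction throughout. Array weights turned H1-10 (0.33), H1-7 (-0.038), H2AC15 (-0.37), H2BC15 (-0.089), H3-3A (-0.028), H3-4 (-0.32), H3C8 (-0.14) and H4C9 (0.18). Without both replicate 1 arrays, with or without the block, H1-7 (-0.0013), H1-8 (-0.093), H2AC15 (-0.25), H2AZ1 (0.023), H3-3A (-0.031), H3-4 (-0.096) and H3C7 (-0.12) turned. The mean of probesets turned H1-7 (-0.014), and quantile normalization turned H2AZ1 (0.042). With an array left out, the ranges that crossed 0 were -0.48 to 0.33 (H1-10), -0.37 to 0.43 (H1-7), -0.021 to 0.26 (H1-8), -0.14 to 0.16 (H2AC15), -0.45 to 0.034 (H2AC17), -1.70 to 0.23 (H2AC20), -0.058 to 0.082 (H2AZ1), -0.016 to 0.17 (H2BC15), -0.013 to 0.68 (H2BC21), -0.32 to 0.13 (H2BC26), -0.15 to 0.21 (H3-3A), -0.10 to 0.22 (H3-4), -0.17 to 0.057 (H3-5), -0.31 to 0.51 (H3C7), -0.14 to 0.28 (H3C8), -0.29 to 0.13 (H4C1), -0.29 to 0.0069 (H4C2) and -0.15 to 0.11 (H4C9). The causes were not tested. A dim signal limits 44 of the 72 genes.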
